A study of Prunus avium with 27 samples.

Results

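Winter flower buds of sweet cherry (Prunus avium), cultivar Burlat, were compared between 5 December 2014, when the labels call them dormant, and 27 January 2015, when the labels call them non-dormant. The comparison rests on 6 RNA libraries, 3 per date, of the 27 samples of the series. The libraries were chosen by their titles, and a gene was tested when it reached 1 TPM (the deposited level, scaled for gene length and to a fixed library total) in at least 3 of the 6, which left 17445 of 29449 listed genes. The trees stood in an orchard in the south west of France, and buds of each date came from the same branches. The other samples used here are 3 RNA libraries from 21 October 2014, also labelled dormant, and 6 chromatin libraries for H3K4me3, 2 per date. The dates compared lie 53 days apart, and the dormancy label and the date cannot be told apart because each label belongs to its own date here. No label ties the replicates to different trees, and p-values therefore cover just the spread among these libraries, which may be technical. Whole buds were ground, so fewer cells of a type and less RNA per cell cannot be told apart in any change given here.

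Buds of temperate fruit trees stop growing in autumn and enter a dormancy that is held by signals inside the bud, and a long exposure to cold is needed before they can respond to warmth. Floral organs are already laid down in the bud by then and finish their development after release. In this genus, dormancy has long been studied through MADS-box transcription factors, cold acclimation proteins and the hormones abscisic acid and gibberellin. The tables used here pair the gene identifiers with no names, and none could be taken from the sweet cherry RefSeq gene table, where 0 of the 29449 identifiers matched. Genes are therefore described by identifier or position, by level and by their H3K4me3, without functions. Positions are as the RNA tables list them, on scaffolds of a genome whose build the sources used here do not name.

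The 6 libraries fell together by date. Taken over genes, which are no independent replicates, Pearson's r of log2(TPM + 1) lay between 0.971 and 0.983 within a date and between 0.940 and 0.948 across the dates. Between 17105 and 17411 genes per library reached 1 TPM. TPM keeps no record of depth, so the depth behind each value is unknown. December replicate 2 had the most genes listed at 0, 10092, against 9129 to 9871 in the other 5 libraries. Marker genes of bud tissues could not be checked, because identifiers carry no names.

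From December to January the RNA level changed for 5558 of the 17445 tested genes (31.9%), with 3123 higher (17.9%) and 2435 lower (14.0%) in January, by limma with Benjamini-Hochberg adjustment at an adjusted p under 0.05. Most changes were small. The genes that rose had a median change of 0.55 on the log2(TPM + 1) scale, with quartiles of 0.39 and 0.83. Those that fell had a median of -0.61, with quartiles of -0.93 and -0.41. A change of at least 2-fold was reached by 481 rising genes (2.76%) and 535 falling genes (3.07%). At 4-fold or more, 67 genes rose and 101 fell, and at 8-fold or more 12 rose and 21 fell. The January and December libraries did not overlap for 477 of the 481 rises and 521 of the 535 falls of at least 2-fold. Over all tested genes, 8225 (47.1%) had no overlap. The calls were made on these same libraries, so the separation of the called genes follows largely from their choice. The excess of rises among all calls depended on scaling, since aligning the library medians gave 3019 rises and 3032 falls (49.9% higher, against 56.2% here), and quantile normalization gave 3086 and 3099. Without December replicate 1 the falls dropped to 1516, with 2434 rises.

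**Figure D1:**
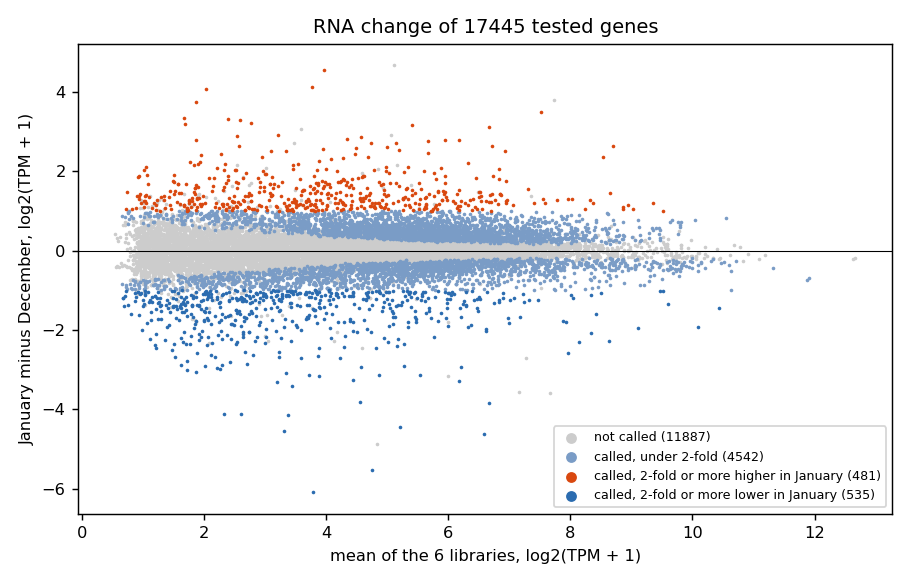
Each point is 1 of 17445 tested genes, with its mean log2(TPM + 1) over the 6 libraries on the x axis and the January minus December difference on the y axis. The 481 rises and 535 falls of at least 2-fold lie across the whole range of levels, and the 11887 genes not called lie mostly around 0.

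The genes that changed by at least 2-fold were a small share of the RNA. Genes with such a rise made up 1.10% to 1.14% of all TPM in the December libraries and 3.07% to 3.27% in the January libraries. In October, a month the comparison did not use, the same genes had held 2.30% to 2.42%. Genes with such a fall made up 3.23% to 3.53% in December and 1.05% to 1.22% in January, after 3.88% to 4.05% in October. The median rising gene of this size stood at 12.5 TPM in October, 8.07 in December and 24.9 in January. The median falling gene stood at 21.3 TPM, 15.0 TPM and 4.76 TPM in that order. Over all tested genes the medians were 24.3, 24.2 and 25.1 TPM. The genes were chosen by the difference between December and January, so the levels of those months describe the choice. Their loci were short, with a median span of 1546 bp for the rises and 1597 bp for the falls, against 2591 bp over all tested genes.

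Among PRUPE identifiers with a change of at least 2-fold and 20 TPM or more at the higher date, the 2 rises and 2 falls with the smallest p are described first. PRUPE_ppa010181mg (scaffold 8, 1630468 to 1632381, minus strand) had 48.0, 57.5 and 55.5 TPM in the December libraries and 694, 628 and 530.4 TPM in the January libraries. Its October values, 45.2, 46.1 and 49.9 TPM, were close to those of December. The means rose 11.5-fold, from 53.7 ± 5.04 to 618 ± 82.4 TPM (mean ± SD, n = 3), with all January libraries far above all others. PRUPE_ppa000217mg (scaffold 3, 2789009 to 2794827, plus strand) had 12.8, 14.6 and 12.3 TPM in December and 146, 129.5 and 107 TPM in January. The October values of 4.76, 3.34 and 3.02 TPM were lower still, so each date stood apart from the next without overlap. The means were 13.2 ± 1.21 TPM in December and 127 ± 19.6 TPM in January (SD, n = 3), a 9.63-fold rise. On the log2 scale the changes from December to January were 3.50 (SE 0.11) for PRUPE_ppa010181mg and 3.17 (SE 0.13) for PRUPE_ppa000217mg, at adjusted p-values of 3.05e-06 and 5.14e-06 (limma with Benjamini-Hochberg adjustment).

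The falls with the smallest p were those of PRUPE_ppa004997mg and PRUPE_ppa002939mg. PRUPE_ppa004997mg (scaffold 7, 16727031 to 16730197, plus strand) had 76.1, 90.1 and 92.9 TPM in December and 8.09, 8.47 and 10.0 TPM in January, with means of 86.4 ± 8.99 and 8.86 ± 1.02 TPM (SD, n = 3), a 9.75-fold fall. Its October values were the highest, at 133, 135 and 127 TPM. PRUPE_ppa002939mg (scaffold 5, 11939138 to 11943570, plus strand) had 189, 186 and 206 TPM in December and 44.8, 50.5 and 50.0 TPM in January. October lay between these months for this gene, at 129.8, 111 and 114 TPM, so December was its highest month. The means fell 4.00-fold, from 194 ± 10.5 to 48.4 ± 3.17 TPM (SD, n = 3). The log2 changes from December to January were -3.15 (SE 0.12) for PRUPE_ppa004997mg and -1.98 (SE 0.08) for PRUPE_ppa002939mg, each at an adjusted p of 5.14e-06 (limma with Benjamini-Hochberg adjustment).

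Measured in TPM, the largest rises were at 3 loci of scaffold 1. The locus at 43326690 to 43328475 was already among the abundant ones, with 1000.2, 1238 and 1138 TPM in December and 2162, 1720.2 and 2124 TPM in January, while October stood at 1139 to 1226 TPM. The locus at 1500014 to 1500980 had 237, 168 and 115 TPM in December and 1103, 1157 and 873 TPM in January, and it was listed at 0, 0 and 0.326 TPM in October. The locus at 29117213 to 29121203 had 149, 155 and 192 TPM in December and 966, 815 and 761 TPM in January, after 41.2 to 47.8 TPM in October. December values overlapped those of October at the first of these loci and lay above all of them at the other two. Their means grew 1.78-fold, 6.02-fold and 5.14-fold from December to January. The log2 changes were 0.83 (SE 0.11), 2.63 (SE 0.23) and 2.36 (SE 0.12), at adjusted p-values of 0.000832, 8.39e-05 and 8.78e-06 (limma with Benjamini-Hochberg adjustment).

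The largest falls in TPM were at loci of very high level. The locus on scaffold 1 at 31121070 to 31121765 had 4091, 5907 and 4868 TPM in December and 3093, 2460.1 and 3221 TPM in January. The locus on scaffold 1 at 9596676 to 9597702 had 4384, 5908 and 4535 TPM in December and 3283, 2309.9 and 3717 TPM in January. Both were highest in December replicate 2 and lowest in January replicate 2, and the December and January libraries did not overlap. The call at both loci depended on the scaling. Their log2 changes of -0.75 (SE 0.15) and -0.69 (SE 0.18), at adjusted p-values of 0.00544 and 0.0194 (limma with Benjamini-Hochberg adjustment), became -0.79 and -0.72 with library medians aligned, at adjusted p-values of 0.0578 and 0.0994. With quantile normalization they became -0.03 and -0.16, at adjusted p-values of 0.740 and 0.427. The call at 9596676 was also lost without a filter on low values (adjusted p 0.0527) and without December replicate 2 (adjusted p 0.0643), both in limma with Benjamini-Hochberg adjustment. The locus on scaffold 3 at 14565856 to 14567470 fell more steeply, from 1959, 2491 and 1984 TPM in December to 587, 429 and 687 TPM in January. This is a 3.78-fold fall of the means and a log2 change of -1.93 (SE 0.16), at an adjusted p of 8.31e-05 (limma with Benjamini-Hochberg adjustment). Its October values, 1451 to 1574 TPM, lay between the other months.

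**Figure D2:**
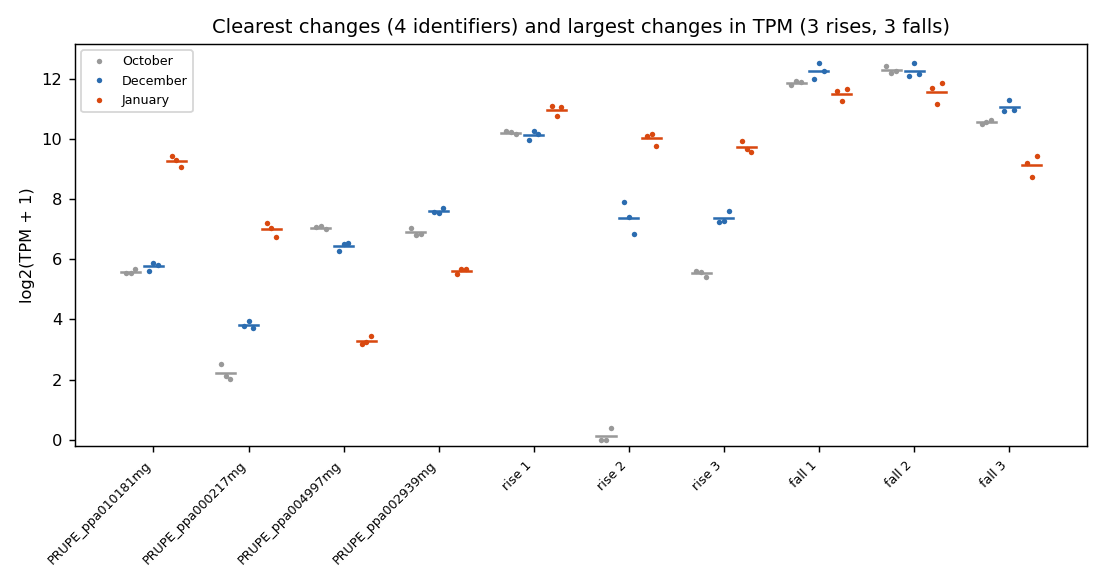
Points are the 3 libraries of each month on the log2(TPM + 1) scale and bars are their means, for the 4 identifiers named above and for the loci with the largest rises and falls in TPM, in the order of the text. PRUPE_ppa010181mg is near its October level in December and rises to 530.4 to 694 TPM in January, while the locus shown as rise 2 stands under 1 TPM in October.

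Some genes crossed between levels under 1 TPM and clear expression. A gene was counted as off under 1 TPM in all 3 libraries of a month and as on at 5 TPM or more in all 3 of the other. Such genes pass the filter on low values only through the month where they are on and had to differ, so their values are given as a description, with no test. Between December and January 4 genes went on and 11 went off. At scaffold 1, 22559662 to 22562042, the gene was listed at 0 in all 3 December libraries and had 13.4, 15.5 and 9.33 TPM in January. In October it had 0.314, 0 and 0.410 TPM, so January was the only one of the 3 dates at which it was on. At scaffold 2, 22257149 to 22257359, a gene also listed at 0 throughout December had 6.37, 9.37 and 12.9 TPM in January, and 0, 0 and 3.74 TPM in October. At scaffold 1, 27131290 to 27132679, the values were 0, 0 and 0.223 TPM in December and 8.40, 7.35 and 10.9 TPM in January, after 0 in all 3 October libraries. The remaining gene, at scaffold 4, 29521994 to 29524635, named after its values were seen, went from 0.749, 0.805 and 0.707 TPM to 6.81, 6.07 and 9.29 TPM.

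Among the 11 genes that went off, those at scaffold 8, 12340805 to 12341150, and at scaffold 5, 10081391 to 10081934, had the highest December means, and their December libraries overlapped. The gene on scaffold 8 had 50.9, 18.5 and 8.29 TPM in December and 0, 0 and 0.741 TPM in January, and it had been higher in October, at 98.7, 239 and 78.4 TPM. Its December mean rests mainly on replicate 1. At the gene on scaffold 5, the December values of 32.2, 25.2 and 18.3 TPM overlapped the October range of 24.7 to 29.1 TPM, and the RNA stood at 0.374, 0.421 and 0.614 TPM in January. At scaffold 6, 7224908 to 7226913, it went from 22.9 to 26.7 TPM in October through 8.06, 10.7 and 12.0 TPM in December to 0.285, 0.339 and 0.926 TPM in January. The counts of 4 and 11 follow the limit, with 17 and 38 genes at a limit of 2 TPM and 0 and 1 at 10 TPM. Genes on in January numbered 8 without December replicate 2, 7 without December replicate 3, 9 without January replicate 1 and 7 without January replicate 3, and genes off in January numbered 18 without January replicate 3. With a library left out fewer values had to meet the limits, so these counts could only stay or grow.

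**Figure D3:**
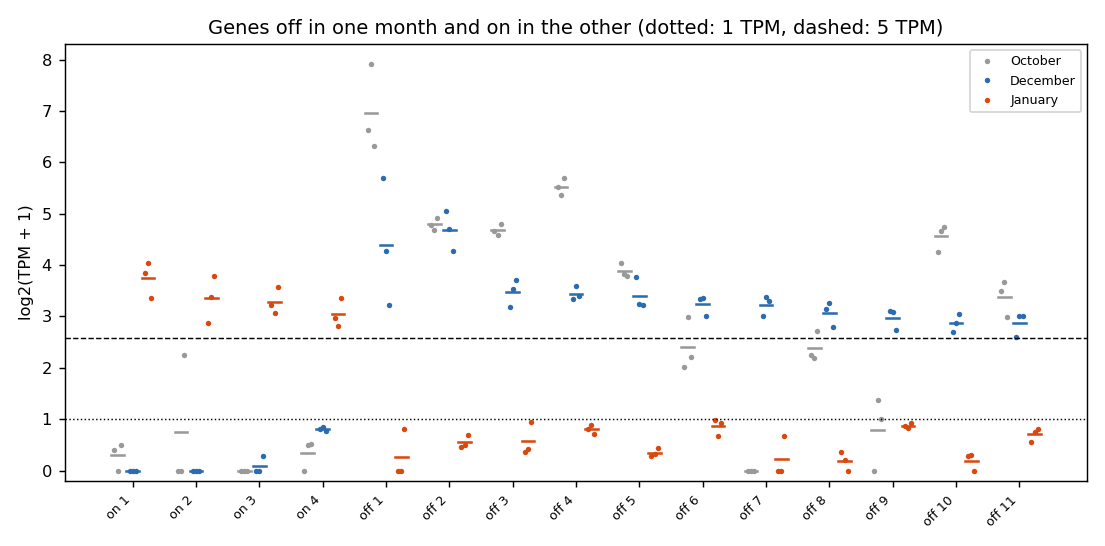
Points are the 3 libraries of each month on the log2(TPM + 1) scale and bars are their means, for the 4 genes that went on and the 11 that went off between December and January, each set ordered by its level when on. The dotted line marks 1 TPM and the dashed line 5 TPM, and October is shown beside them although it took no part in the choice.

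Neighbouring genes in some places moved together. Runs of at least 3 consecutive tested genes that all changed by at least 2-fold in the same direction occurred 12 times, 5 of them rising and 7 falling, and held 40 genes. Each gene of a run had to be called, so the adjusted p-values and the separation of December and January describe the choice. Whether the genes of a run are near-identical copies that share reads is not known here, so values of single genes within a run are uncertain. The longest rising runs had 4 genes each. On scaffold 1, between 38155413 and 38195504, the December means of the 4 genes ran from 1.68 to 45.7 TPM and the January means from 6.84 to 167 TPM, with log2 changes of 1.16 to 1.82. In order of position, the January libraries had 6.50, 5.80 and 8.20 TPM at the first gene, 213, 162 and 127 TPM at the second, 13.6, 11.9 and 12.6 TPM at the third and 102, 75.5 and 79.7 TPM at the last. The second and last genes had been far lower in October, at 5.61 to 6.16 TPM and 6.56 to 11.7 TPM, than in December, at 41.6 to 51.0 TPM and 32.6 to 44.8 TPM.

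On scaffold 3, between 17411816 and 17437449, the pattern over the 3 dates was another. The last gene of that run had 48.9, 49.0 and 55.4 TPM in October, 8.16, 3.78 and 9.25 TPM in December and 35.2, 31.9 and 44.1 TPM in January. The second had 31.0, 33.2 and 36.2 TPM, then 9.98, 6.09 and 8.07 TPM, then 25.0, 18.7 and 36.4 TPM. Both were thus lowest in December, whereas the first gene stood at 0 to 0.650 TPM in October, 0 to 1.44 TPM in December and 5.17 to 8.31 TPM in January. The log2 changes from December to January over the 4 genes were 1.31 to 2.30, at adjusted p-values of 0.000426 to 0.0137 (limma with Benjamini-Hochberg adjustment).

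The longest falling run had 5 genes on scaffold 6, between 18614876 and 18635828. Its December means ran from 3.61 to 16.7 TPM and its January means from 0.488 to 3.01 TPM. None of the 5 genes overlapped between the months, which the choice of called genes favours. The fourth and last genes were under 1 TPM in all January libraries and passed the filter on low values only through December. The highest gene of the run, the second, had 16.4, 21.2 and 12.5 TPM in December and 1.74, 4.82 and 2.45 TPM in January. The log2 changes were -2.21 to -1.39, at adjusted p-values of 0.000832 to 0.00761 (limma with Benjamini-Hochberg adjustment), and the October mean of each gene, 6.21 to 24.4 TPM, lay above its December mean. The falling run with the highest levels, 3 genes on scaffold 8 between 12340805 and 12363370, includes the gene that went off at 12340805. Its means ran from 139 to 1207 TPM in October, 25.9 to 387 TPM in December and 0.247 to 30.1 TPM in January. That run is named after its values were seen.

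**Figure D4:**
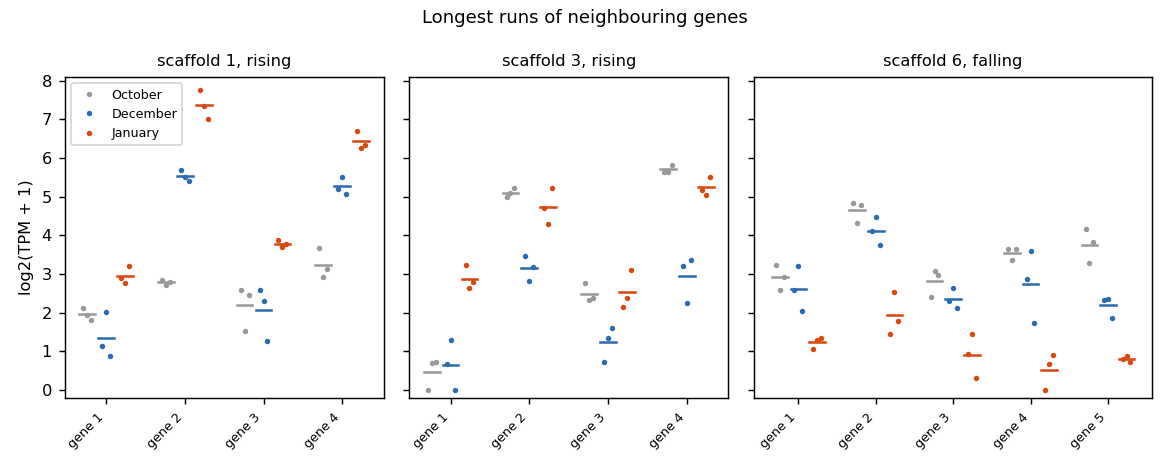
The panels show the longest rising runs, on scaffolds 1 and 3, and the longest falling run, on scaffold 6, with genes in order of position. Points are the 3 libraries of each month on the log2(TPM + 1) scale and bars are their means. January lies above December at all 8 genes of the rising runs and below it at all 5 genes of the falling run. The choice of runs required this difference. October lies below December at some genes of scaffold 1. The October mean lies above the December mean at all 5 genes of scaffold 6, though the libraries of these months overlap at all but the last gene.

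Short loci whose identifiers begin with EPlPPEG, with a median span of 170 bp against 2605 bp for PRUPE identifiers, are described apart because they varied more between libraries. Of the 112 tested, 32 were called (28.6%, beside 31.9% of all genes). Of the 112, 24 fell and 2 rose by at least 2-fold, beside 3.07% lower and 2.76% higher over all genes. The median SD between libraries of a month was 0.96 log2 units for these loci, against 0.14 for PRUPE identifiers. All EPlPPEG loci together made up 1.67% to 1.83% of the RNA in December and 1.21% to 1.62% in January, ranges that did not overlap, and 1.11% to 1.80% in October. A falling run of 3 such loci lay on scaffold 6, from 27457850 to 27460633. Its means were 13.4 to 38.4 TPM in December and 1.65 to 5.72 TPM in January.

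H3K4me3, histone H3 trimethylated at lysine 4, is a mark of the starts of transcribed genes. It was measured in buds of the same branches, as a signal normalised by the authors over 25635 regions, with 2 libraries per date. A tested region could be joined to 12468 of the 17445 genes. Over all 15360 tested regions, 266 (1.73%) changed between December and January, 67 higher (0.436%) and 199 lower (1.30%), and the median region moved by -0.11 on the log2(signal + 1) scale, so the changes of gene groups are given relative to that median. The tests were made on the change itself, before the median was taken off. The excess of losses depended on the scaling and on single libraries, with 450 gains and 451 losses when library medians were aligned, 374 and 384 with edgeR, 127 and 3770 without January replicate 2, 48 and 359 without December replicate 2, and 54 and 56 without January replicate 3. A tested region was joined to 299 of the 481 genes whose RNA rose by at least 2-fold. Their median H3K4me3 change was 0.33, with quartiles of 0.11 and 0.67. Of these, 26 had a called gain of H3K4me3 and 1 a called loss. Of the 535 genes whose RNA fell by at least 2-fold, 321 had a tested region. At these 321 the median was -0.24, with quartiles of -0.67 and 0.01, and 53 had a called loss and 1 a called gain. Of the 11887 genes not called in RNA, 8240 had a tested region. At these 8240 the median was -0.01, and 12 had a called gain and 72 a called loss. At 4-fold or more the medians were 0.68 for 37 of the 67 rising and -0.52 for 38 of the 101 falling genes. The other genes had no joined region or one under the filter on low signal, so the medians cover part of each group. Where a region was joined, it was tested at 74.8% of rises and 72.5% of falls of at least 2-fold. Over all tested genes that share was 83.1%. Counting all RNA calls, the H3K4me3 change was called in the same direction at 123 genes and in the opposite direction at 7. These counts moved widely with the processing and single libraries: the first was 0 without a filter on low signal and 404 with library medians aligned, 837 without January replicate 2, 58 without January replicate 3 and 80 without December replicate 3. The second went from 43 with medians aligned to 281 without January replicate 2, 11 without December replicate 2 and 4 without December replicate 3.

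**Figure D5:**
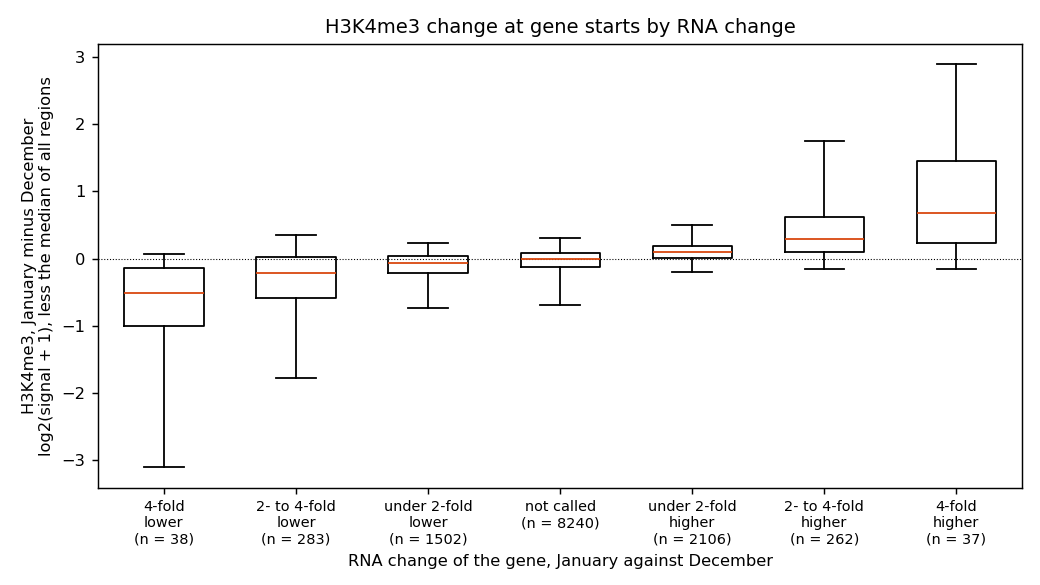
Boxes show the January minus December change of H3K4me3 at gene starts, on the log2(signal + 1) scale less the median of all regions, for genes grouped by the RNA change between the same months. Only genes with a tested region are shown. Boxes span the quartiles, red lines are medians and whiskers reach the 5th and 95th percentiles. The medians run from -0.52 at RNA falls of 4-fold or more, through -0.01 at genes not called, to 0.68 at rises of 4-fold or more.

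Genes called in both assays in the same direction were ordered by the product of their log2 changes, and the first 3 each way are given here as a description, since they were chosen for their calls. The first of the joint rises was PRUPE_ppa000217mg, whose region passed the filter on low signal only through January. It had a signal of 0.151 and 8.16 in December and 198 and 181 in January, and 0.183 and 0.154 in October. At the locus on scaffold 1 at 1500014 H3K4me3 moved from 8.16 and 13.4 in December to 123 and 124 in January, while October, when the RNA was near 0, had 6.77 and 14.2. The RNA there was thus at 115 to 237 TPM in December while the mark lay within its October range. This locus belongs to a rising run of 3 neighbouring genes, from 1500014 to 1508860. The limit given above for single genes within a run therefore applies to its RNA. At the locus on scaffold 1 from 33621801 to 33623305 H3K4me3 moved from 4.38 and 4.08 to 77.6 and 67.6. The RNA there moved from 0.699, 0.330 and 0.416 TPM to 3.61, 4.22 and 5.82 TPM. October had 1.38 to 5.28 TPM, which overlapped January, and a signal of 0.366 and 16.5. Both the RNA and the region of this locus passed their filters on low values only through January. From December to January the H3K4me3 changes were 5.88, 3.45 and 3.81 on the log2(signal + 1) scale in that order. The H3K4me3 call at 33621801 was close to the threshold, with an SE of 0.9 and an adjusted p of 0.041 (limma with Benjamini-Hochberg adjustment).

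The mark also rose at other loci named above. At PRUPE_ppa010181mg the signal was 172 and 192 in October, 112 and 155 in December and 373 and 305 in January, so a region that was already marked gained further. At the locus on scaffold 1 at 29117213 it was 108 and 120.3, then 189.7 and 211, then 383 and 387, and was higher at each later date without overlap, as was the RNA. These changes from December to January were 1.35 (SE 0.17) and 0.94 (SE 0.14) on the log2(signal + 1) scale, at adjusted p-values of 0.000722 and 0.00239 (limma with Benjamini-Hochberg adjustment). At the abundant locus on scaffold 1 at 43326690 the signal went from 524 and 512 to 719 and 686, a change of 0.44 (SE 0.12) at an adjusted p of 0.0693 by the same test.

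The first of the joint falls was a gene on scaffold 4 at 6477059 to 6478206, which was also among those that went off. Its signal was 124 and 119.8 in October, 77.3 and 78.0 in December and 1.72 and 0.185 in January, and its RNA was 12.9 to 15.5 TPM, then 12.6, 8.43 and 8.34 TPM, then 0.220, 0.247 and 0.353 TPM. On scaffold 1 at 11693616 to 11694684 H3K4me3 moved from 135 and 117 to 16.4 and 12.6, and the RNA from 52.9, 49.5 and 40.0 TPM to 0.624, 0.756 and 2.09 TPM. October had 13.6 to 18.2 TPM and a signal of 105 and 113 there. On scaffold 5 at 10107138 to 10107696 the RNA went from 118, 115 and 105 TPM to 0, 0 and 3.57 TPM. The signal went only from 79.8 and 66.4 to 33.5 and 35.4. In October this locus had 1.59 to 3.01 TPM and a signal of 50.5 and 56.3, so its RNA was high only in December. The RNA of all of these loci passed the filter on low values only through December. From December to January the H3K4me3 changes were -5.45, -3.04 and -1.06 on the log2(signal + 1) scale in that order. The H3K4me3 call at 10107138 was close to the threshold, with an SE of 0.25 and an adjusted p of 0.041 (limma with Benjamini-Hochberg adjustment).

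RNA changes also occurred where the H3K4me3 tables held no signal above their minimum, or where no change of the mark was called. PRUPE_ppa004997mg, which fell 9.75-fold, stood at the lowest value of the table in all 6 H3K4me3 libraries. PRUPE_ppa002939mg had a strong signal, 317 and 311 in December and 281 and 226 in January, with a change of -0.32 (SE 0.13) on the log2(signal + 1) scale at an adjusted p of 0.299 (limma with Benjamini-Hochberg adjustment). The locus on scaffold 3 at 14565856, whose RNA fell 3.78-fold, had 145 and 159 in December and 162 and 138 in January, a change of -0.02 (SE 0.15) at an adjusted p of 0.982 by the same test. At the gene on scaffold 2 at 22257149, listed at 0 TPM throughout December, the joined region had a strong signal in that month, 259 and 265. In January it had 269 and 221. This locus spans only 210 bp, and its region, from 22255859 to 22257859, lies mostly beyond the gene. Whether the signal belongs to a neighbouring gene was not tested. Of the 15 genes that went on or off, 14 had a joined region. Of these regions, 7 were at the lowest value in all 4 libraries of December and January. The same held for 77 of 443 regions (17.4%) at falls of at least 2-fold, 46 of 400 (11.5%) at rises and 1516 of 14996 (10.1%) over all tested genes. The sources used here do not say whether the signal is net of a control, so a region at the minimum need not be free of the mark.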

How the data were processed

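RNA values are TPM deposited by the authors, 1 table per library, each summing to 1000000 over 29449 identifiers. Per the submitters' processing notes TopHat and Picard were used for them, without versions, and the sources used here name neither the program that computed TPM nor the annotation or genome build. Per the labels' protocols the libraries were stranded. For H3K4me3 the authors deposited a normalised signal per region, called TMM per the file headers, with FastQC, Trimmomatic, Bowtie2, Picard and DiffBind named in the submitters' processing notes. All signal values (100%, within 0.01) were whole multiples of a step per library, and these 14216613 to 28126160 steps per library were used as recovered reads in 1 alternative. Depth behind TPM is unknown, so no counting intervals are given.

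The 3 December and 3 January RNA libraries were fitted alone, as log2(TPM + 1), in limma 3.58.1 under R 4.3.3 (trended prior variance, two-sided, Benjamini-Hochberg adjustment over 17445 genes). Fold changes on this scale understate the change of low genes. H3K4me3 was tested likewise in all 6 libraries as log2(signal + 1), keeping the 15360 regions that reached 10 in 2 or more of them, with dates as groups. A region was joined to a gene where it matched the window from 500 bp before to 1500 bp after the start of exactly 1 gene. The match also gave the strand. All 671 regions with an identifier fitted this once the starts of the RNA tables, printed as listed, were taken to be 1 base low. At loci under 1500 bp the window runs past the gene, and overlap of regions with other genes was not checked. Alternatives included edgeR 4.0.16 on recovered reads. The limma test was checked on simulated data with 200 changed genes. It recovered 2.5%, 68% and 96.5% of changes of 0.5, 1 and 2 log2 units, with 0, 7 and 13 false calls. Changes of 0.5 were thus mostly missed in that setting, which held far fewer changed genes than were called here.

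Members and lists were chosen with earlier results of these data known. By identifier, the text names the 2 rises and 2 falls with the smallest p among PRUPE identifiers changed by 2-fold or more, without overlap and at 20 TPM or more at the higher date. By position it names the 3 largest differences in TPM, the 3 highest switches and the longest runs each way, and the 3 genes called in both assays with the largest product of log2 changes. Replicate numbers were not used as pairs. The H3 and input libraries were not analysed here.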

Additional observations from a re-analysis of the deposited data

How the results depend on the processing

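Log2 changes were recomputed for the 41 genes named or plotted above, some of them shown only in the plot of genes that went on or off. These genes were chosen for their changes in the same libraries, so agreement between settings follows largely from the choice. It cannot tell how well the changes would hold in other buds. Of 649 recomputed log2 changes, 643 kept their direction and their side of the threshold, 6 kept only the direction, and 0 turned. The 6 belong to the abundant loci on scaffold 1 at 31121070 and 9596676, and the cause was not tested. The count of RNA calls ran from 4945 to 6185 over alternatives with all 6 libraries other than the filters and the block, and from 3950 to 5477 when a library was left out, with 1516 to 2197 falls. A pseudocount of 5 left 262 rises and 251 falls of 2-fold or more, since it shrinks the change of low genes. Genes on in January numbered 17 and 0 at limits of 2 and 10 TPM, those on in December 38 and 1. Without single libraries, which loosens the rule and can only keep or raise the counts, the first ran from 5 to 9 and the second from 11 to 18. There were 84 runs of at least 2 genes and 3 of at least 4.

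Same-numbered RNA libraries of the dates did not deviate together (r of -0.04, -0.08 and -0.08 across genes). The labels do not say whether equal numbers share a tree, and these values cannot settle it. With a replicate block 4684 genes were called, 502 rises and 553 falls of at least 2-fold. For H3K4me3, genes called in both assays in the same and in opposite directions numbered 404 and 43 with library medians aligned, 0 and 0 without a filter on low signal, where limma called 0 regions and 1985 had an unadjusted p under 0.05, 352 and 32 with edgeR, and 192 and 13 with a replicate block. With a pseudocount of 0.1 the same direction was called at 80. Without single libraries they ran from 58 to 837 and from 4 to 281. The deviations of same-numbered H3K4me3 libraries were only weakly and negatively related (r of -0.102). A block with crossed numbers, chosen after seeing the data, gave 543 and 58. The causes were not tested. The median October level of genes with a 2-fold rise ran from 9.91 to 24.9 TPM over the settings and that of genes with a 2-fold fall from 18.1 to 43.8 TPM, both highest with a pseudocount of 5. Unknown depth limits what can be said of genes near 1 TPM.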

Other observations

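RNA calls between December and January were found on all 8 large scaffolds, with 30.1% (scaffold 2) to 33.2% (scaffold 7) of the tested genes called. Falls of at least 2-fold made up 3.79% of the genes tested on scaffold 8 and 2.35% on scaffold 3, where rises of that size made up 3.28%. These shares were not tested against each other.

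The share of genes called grew with the level. It was 17.9% of 3108 genes under a mean of 5 TPM and 48.1% of 2237 genes at 100 TPM or more. From the lowest stratum to the highest (under 5, 5 to 20, 20 to 100 and 100 TPM or more) the share of rises of at least 2-fold was 3.25%, 3.69%, 2.16% and 2.24%, and that of falls 4.99%, 4.36%, 1.88% and 1.83%.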
